A study of Mus musculus with 2 samples.

Results

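The Mos, Raf and ERK cascade was examined in RNA of the second polar body (PB2) and of the zygote through 8 genes, Mos, Araf, Braf, Map2k1, Map2k2, Mapk3, Rps6ka1 and Rps6ka3. They were taken from the expression table by their symbols, and all 8 were found among its 11262 genes. The 8 genes were chosen with earlier results of these data known. Untreated one-cell embryos of C57BL/6 mice (C57BL/6N in the study's methods) were taken from the oviduct and cultured, their zona pellucida was removed with acid Tyrode's solution at the late one-cell stage, and PB2 was detached from the zygote with trypsin and pipetting. PB2s and zygotes were each pooled, polyadenylated RNA was copied into cDNA over its full length, amplified by a kit for single cells, and 1 library of each was sequenced. The data hold no replicates, so no test was run and each difference describes these 2 libraries only.

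This kinase cascade passes a signal by phosphorylation from a MAP3K (Mos or a Raf kinase) to a MAP2K (MEK), from MEK to a MAPK (ERK), and from ERK to RSK kinases. In the vertebrate oocyte it is known for meiotic maturation and for cytostatic factor activity, which holds the egg at metaphase of meiosis II until fertilization. Mos is the MAP3K particular to germ cells, whereas Raf kinases relay signals from Ras in most cell types. The same cascade acts downstream of growth factors in the later embryo. The comparison of PB2 with the zygote belongs to the study's search for molecules of PB2 with a role for the embryo.

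Levels are TPM, the field's unit of transcript abundance, a measure already divided by gene length and by the library's total. TPM is a proportion within its library, so a larger RNA content and a larger share of the RNA cannot be told apart, and the number of reads behind a value is not known. Genes were compared by the log2 ratio, log2((PB2 TPM + 1)/(zygote TPM + 1)), in which the added pseudocount of 1 understates the change of low genes. The 10645 genes with at least 1 TPM in either library were compared, and their median log2 ratio was 0.21. Beside each fold, the range allowed by the deposition of TPM to 1 decimal is given where it matters. That range covers rounding alone and neither counting error nor the spread between samples.

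Of the 8 genes, Mos, Map2k1, Map2k2 and Mapk3 were higher in PB2 by 2-fold or more by the log2 ratio, and none was higher in the zygote by 2-fold or more. Among all genes compared, 18.9% were higher in PB2 by 2-fold or more and 8.09% higher in the zygote by 2-fold or more. The median log2 ratio of the 8 genes was 0.97. Centring all ratios on their median left the same 4 genes past the threshold, with 1383 of all genes then passing it in PB2 and 1291 in the zygote, against 2009 and 861 without centring. Map2k2 and Mapk3 are among the genes the study had itself picked as enriched in PB2 from these libraries, so their place in this count is not independent. Araf, Braf and Rps6ka1 had higher TPM in PB2 without reaching 2-fold by the log2 ratio, although the plain TPM of Braf was 2.0 times as high, and Rps6ka3 had the higher TPM in the zygote. Counted by direction alone, 7 of the 8 were higher in PB2, beside 59.2% of all genes compared, and 27.0% of those genes were 2-fold or more apart in either direction.

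In the zygote the order of levels was Map2k1, Mapk3, Mos, Rps6ka3, Araf, Rps6ka1, Map2k2 and Braf. In PB2 it was Mapk3, Map2k1, Mos, Map2k2, Araf, Rps6ka3, Rps6ka1 and Braf. The same 3 genes led both libraries, with a wide gap to the others: the lowest of them stood at 62.7 TPM in the zygote and at 310.1 TPM in PB2, while none of the other members passed 9.5 TPM in the zygote or 19.2 TPM in PB2. Without replicates it cannot be said which neighbours in these orders differ beyond their spread.

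**Figure D1:**
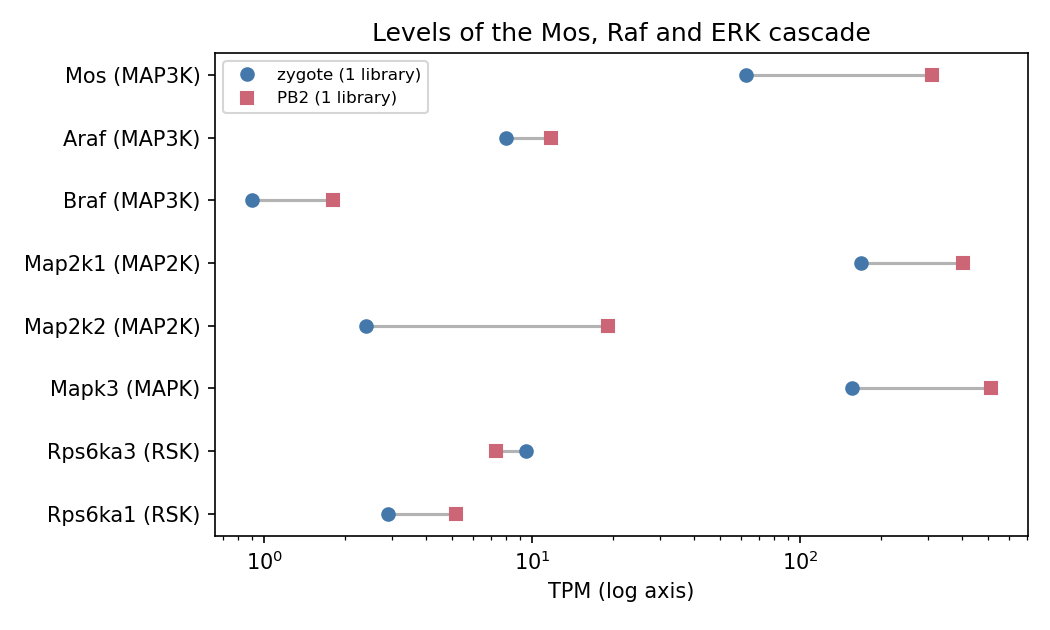
TPM (log axis) of the 8 cascade genes in the zygote (circles) and in PB2 (squares), 1 library each, with a grey line joining the values of a gene. Mos, Map2k1 and Mapk3 lie above 60 TPM in the zygote and above 300 TPM in PB2, and Rps6ka3 is the gene whose square lies to the left of its circle.

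At the top of the cascade, Mos (ENSMUSG00000078365) stood at 62.7 TPM in the zygote and at 310.1 TPM in PB2. Its PB2 level was 4.95 times that of the zygote, with a log2 ratio of 2.29, and 114 of the genes compared (1.07%) had a larger one. By TPM, Mos ranked 1919 of the table in the zygote and 422 in PB2. In GRCm38 it occupies bases 3870657 to 3872105 of chromosome 4, minus strand, and its transcript has 1 exon of 1449 nucleotides with a coding sequence of 1032.

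The Raf kinase genes Araf and Braf were far less abundant than Mos. Araf (ENSMUSG00000001127), on chromosome X from 20797814 to 20860519, stood at 8.0 TPM in the zygote and at 11.8 TPM in PB2, 1.48 times as much and a log2 ratio of 0.51. Braf (ENSMUSG00000002413), on chromosome 6 from 39603237 to 39725463, stood at 0.9 TPM in the zygote and at 1.8 TPM in PB2. It met the filter of 1 TPM in PB2 alone. Rounding allows any Braf ratio between 1.84 and 2.18, and at these low levels the pseudocount brought its log2 ratio to 0.56.

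Exons of 3 members overlap genes of the other strand on part of their length, 146 bases with Ndufb2 for Braf, 137 bases with Gm12977 for Rps6ka1 and 9 bases with Syn1 for Araf. The sources used here do not state that reads were counted by strand, so reads in those stretches may not be told apart. No such overlap was found for Mos, Map2k1, Map2k2, Mapk3 or Rps6ka3.

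With Mos, Araf and Braf summed, their level was 71.6 TPM in the zygote against 323.7 TPM in PB2, 4.52 times as much. Mos made up 87.6% of that sum in the zygote and 95.8% in PB2. The share of Araf was 11.2% in the zygote and 3.65% in PB2, and that of Braf 1.26% and 0.556%. A share within a library does not depend on how the 2 libraries are scaled. Mos was the predominant transcript of these 3 MAP3K genes in both.

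The MEK genes differed from one another in level and in ratio. Map2k1 (ENSMUSG00000004936), which encodes MEK1 and lies on chromosome 9 from 64185770 to 64253631, stood at 168.5 TPM in the zygote and at 406.5 TPM in PB2. This was 2.41 times as much, with a log2 ratio of 1.27. Map2k2 (ENSMUSG00000035027), which encodes MEK2 and lies on chromosome 10 from 81105915 to 81133975, stood at 2.4 TPM in the zygote and at 19.2 TPM in PB2. Its PB2 level was 8.0 times that of the zygote, between 7.82 and 8.19 times given rounding, and its log2 ratio of 2.57 was exceeded by 45 of the genes compared (0.423%).

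Map2k2 thus had the largest ratio of the 8 genes from one of the lowest zygote levels. Of the summed MEK transcripts, Map2k1 made up 98.6% in the zygote and 95.5% in PB2, and Map2k2 1.40% and 4.51%. Map2k1 transcripts were 70.2 times as abundant as those of Map2k2 in the zygote and 21.2 times in PB2. MEK1 transcripts prevailed in both libraries.

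How far reads of MEK1 and MEK2 can be kept apart depends on the stretches their transcripts share. The longest run of identical bases between the Map2k1 and Map2k2 transcripts was 56, the longest among the 5 paralogue pairs compared, and for Rps6ka1 and Rps6ka3 it was 38. The most alike 90 bases of the coding sequences, in frame and without gaps, are shown because Map2k2 reads are few beside those of Map2k1. They are read from the GRCm38 transcripts of GENCODE M21, and capitals mark the 3 bases that differ.
Map2k1, coding bases 352 to 441: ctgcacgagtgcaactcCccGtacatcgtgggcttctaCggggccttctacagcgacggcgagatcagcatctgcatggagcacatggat
Map2k2, coding bases 364 to 453: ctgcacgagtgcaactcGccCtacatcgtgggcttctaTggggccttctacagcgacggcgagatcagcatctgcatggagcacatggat
All 3 differences fall at the third codon position. How reads of such stretches were assigned is not given in the sources used here, and its part in the Map2k2 values was not tested.

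At the ERK step, Mapk3 (ENSMUSG00000063065), which encodes ERK1 and lies on chromosome 7 from 126759601 to 126765819, stood at 155.4 TPM in the zygote and at 513.3 TPM in PB2. This was 3.3 times as much, with a log2 ratio of 1.72, and 4.76% of the genes compared had a larger one. Mapk3 ranked 861 in the zygote and 242 in PB2, the highest rank of the 8 genes there.

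Mapk3 and Map2k1 stood at nearly the same level in the zygote, with a Mapk3 to Map2k1 ratio of 0.922, and that ratio was 1.26 in PB2. The ratio of Mapk3 to Mos was 2.48 in the zygote and 1.66 in PB2, and that of Map2k1 to Mos was 2.69 and 1.31. Mapk3 and Map2k1 thus exceeded Mos by less in PB2.

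**Figure D2:**
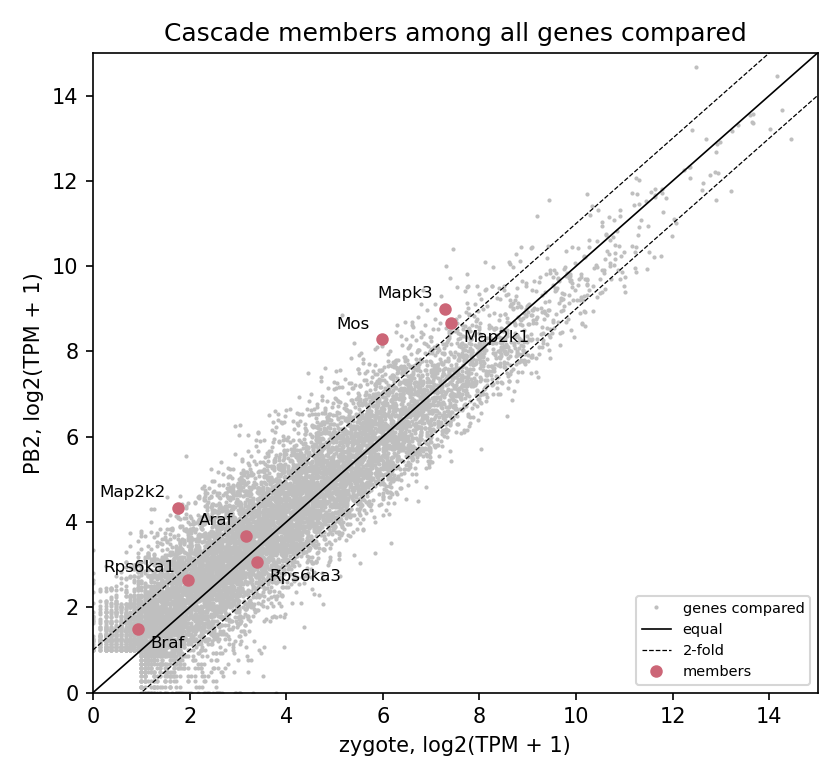
Each of the 10645 genes compared by log2(TPM + 1) in the zygote (x axis) and in PB2 (y axis), with the 8 cascade genes named; the solid line marks equal values and the dashed lines 2-fold. Mos, Map2k1, Map2k2 and Mapk3 lie above the upper dashed line, and Rps6ka3 is the member below the solid line.

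The study also designed RT-qPCR primers for Mapk3 and Map2k2, and these are printed to show which part of each transcript the pair covers.
Map2k2 forward: ggcaggggacctatgccc
Map2k2 reverse: catgcagggcactgcctttg
Mapk3 forward: ccctggaagccatgagagatg
Mapk3 reverse: acatactccgtcagaaagccag
Both pairs matched the GENCODE transcript of their gene exactly and, as a pair, that of no other gene among the transcripts used here. The Map2k2 pair spans 297 bases of the 3′ UTR, from base 1521 to base 1817 of the transcript, beyond the coding sequence that ends at base 1438. The Mapk3 pair spans 283 bases, from base 380 to base 662, within the coding sequence. Neither product covers the whole transcript, whereas TPM is computed over the gene. By RT-qPCR the study reports higher expression in PB2 for pluripotency-related genes it had chosen, components of the MAPK pathway among them. The template was part of the amplified cDNA also used for sequencing, so that assay does not add an independent sample. No RT-qPCR value was analysed here.

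The RSK kinases, substrates of ERK at the end of the cascade, showed no such difference. Rps6ka1 (ENSMUSG00000003644), the gene of RSK1 on chromosome 4 from 133847290 to 133887797, stood at 2.9 TPM in the zygote and at 5.2 TPM in PB2, 1.79 times as much and a log2 ratio of 0.67. Rps6ka3 (ENSMUSG00000031309), the gene of RSK2 on chromosome X from 159210307 to 159368244, stood at 9.5 TPM in the zygote and at 7.3 TPM in PB2. Its zygote level was 1.3 times that of PB2, with a log2 ratio of -0.34.

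Rps6ka6, the gene of RSK4 and not one of the 8, stood at 19.2 TPM in the zygote and at 18.3 TPM in PB2, and was the most abundant RSK gene analysed in both. The sum of the 3 RSK genes was 31.6 TPM in the zygote against 30.8 TPM in PB2. Over the same libraries the summed MEK genes had 170.9 and 425.7 TPM. The MAP3K sum was thus 4.52 times, the MEK sum 2.49 times and Mapk3 3.3 times as high in PB2 as in the zygote, against 0.975 times for RSK. Mos, Map2k1 and Rps6ka6 each made up most of their sum, and Rps6ka6 was added after its values were seen. As single genes the steps overlapped, with a log2 ratio of 0.67 for Rps6ka1 against 0.51 for Araf and 0.56 for Braf. The genes of these steps also differ in GC content, given below, and its part in the contrast between sums was not tested.

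**Figure D3:**
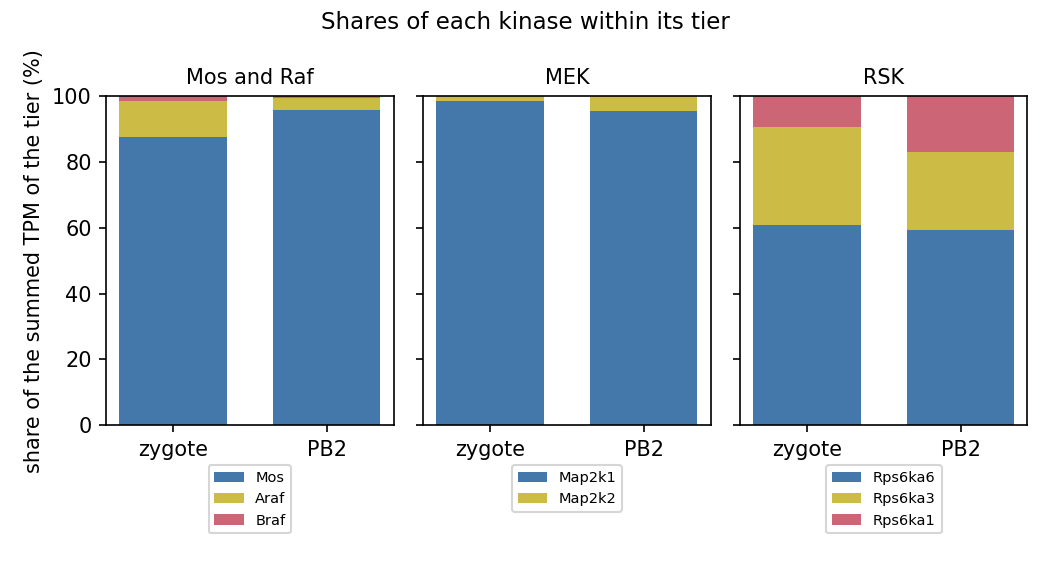
Share of each gene in the summed TPM of the genes shown for its step of the cascade (y axis, percent) in the zygote and in PB2, 1 library each. Mos makes up 87.6% and 95.8% of the first sum, Map2k1 98.6% and 95.5% of MEK, and Rps6ka6 60.8% and 59.4% of RSK.

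Across the table, GC content of the transcript and log2 ratio went together, with a Spearman's rho of 0.45 across 10606 genes, which are not independent replicates, and the members differed widely in GC content. With genes divided by GC content into 10 bins of equal size, 47.7% were higher in PB2 by 2-fold or more, in the bin of highest GC, against 3.39% in the lowest bin. Map2k2, with 60.4% GC, and Mapk3, with 57.6%, belong to the highest bin. Mos, with 53.5%, and Araf, with 55.0%, belong to a bin where the share was 28.8%. Map2k1 had 51.2%, in a bin where it was 23.9%. Rps6ka1 had 56.9%, in a bin where the share was 38.5%, and Braf 42.6%, in a bin where it was 4.05%. Rps6ka3 had 40.5%, in the lowest bin. Rps6ka6, which made up most of the RSK sum, had 39.7% and belongs to the lowest bin too.

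After the loess trend on GC content was subtracted, a step that centres the ratios as well, Mos kept a log2 ratio of 1.78 and Map2k2 one of 1.60. Map2k1 then had 0.91 and Mapk3 0.89, both below the 2-fold threshold (Map2k1 also when a trend on transcript length was removed, at 0.97), so that 2 of the 8 genes passed. Over all genes, 976 of 10606 were then higher in PB2 by 2-fold or more. Araf had -0.13 and Rps6ka1 -0.12 after removal, against 0.51 and 0.67 before. Braf, of low GC content at 42.6%, had 0.77, and Rps6ka3 had -0.0071. Rps6ka6, not one of the 8, had 0.31. Mos and Map2k2 thus remained past 2-fold with and without the trend, and the part of GC content in any single ratio was not tested.

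GC content also differed between close paralogues. At the third codon position, GC content was 73.3% in Rps6ka1 and 36.0% in Rps6ka3 and 78.9% in Map2k2 and 66.8% in Map2k1. In both of these pairs the gene with more GC had the larger log2 ratio. Araf and Braf, with 66.6% and 47.3% at that position, did not follow this order, with log2 ratios of 0.51 and 0.56. The most alike 90 coding bases of the RSK pair, with the 14 differing bases in capitals, are printed to show how a like coding stretch of these paralogues differs in composition.
Rps6ka1, coding bases 1372 to 1461: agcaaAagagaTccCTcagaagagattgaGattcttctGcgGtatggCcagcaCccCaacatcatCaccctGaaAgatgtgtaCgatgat
Rps6ka3, coding bases 1366 to 1455: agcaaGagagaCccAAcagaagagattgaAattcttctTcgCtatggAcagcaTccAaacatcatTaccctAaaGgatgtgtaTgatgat
Of these differences 13 fall at the third codon position. G or C in Rps6ka1 stands against A or T in Rps6ka3 at 9 of them, and the reverse holds at 3. The stretch has 46.7% GC in Rps6ka1 and 40.0% in Rps6ka3. In the MEK stretch printed above the difference was smaller and of the other sign, with 58.9% GC in Map2k1 and 57.8% in Map2k2.

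**Figure D4:**
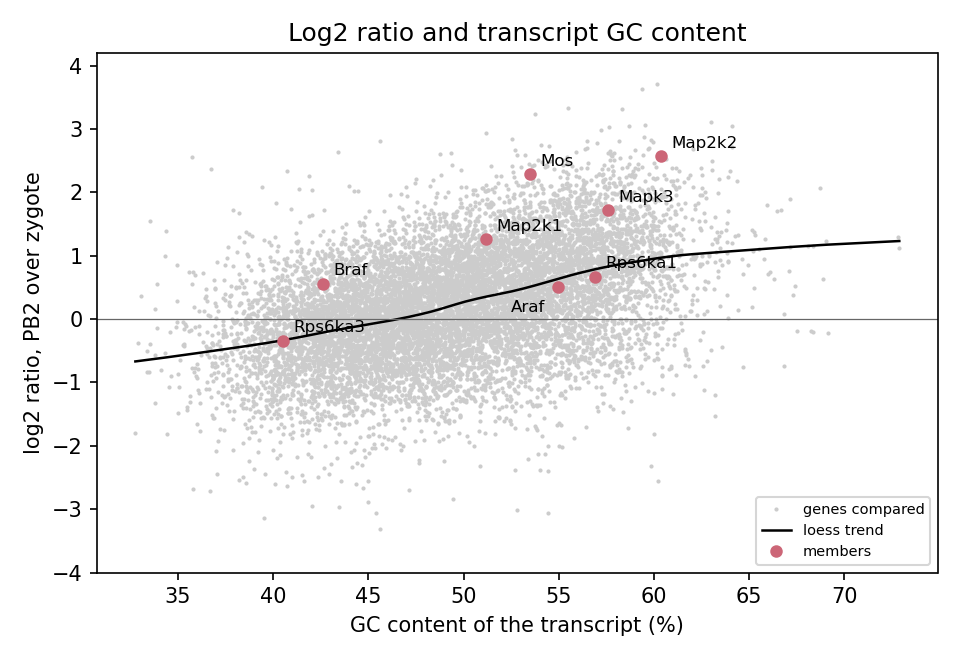
Log2 ratio of PB2 over zygote (y axis) against GC content of the transcript in percent (x axis) for the genes compared, with the loess trend as a black line and the 8 cascade genes named. Mos lies 1.78, Map2k2 1.60, Map2k1 0.91 and Mapk3 0.89 above the line, while Araf, Rps6ka1 and Rps6ka3 lie close to it.

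The log2 ratio was also set beside the level of the genes. Mos, Map2k1 and Mapk3 fall in the highest of 10 bins of mean TPM, from 131.0 TPM up. In that bin 14.7% of genes were higher in PB2 by 2-fold or more, less than the 18.9% over all genes compared, and the median log2 ratio was -0.064. Map2k2, Araf and Rps6ka3 fall in the bin with the highest such share, 22.5%. The part of level in the members' ratios was not tested.

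Other genes of the pathway were followed in 8 lists by role, written by hand with earlier results of these data known. Of 96 genes written, 78 were found in the table and 75 reached 1 TPM in either library. Of these 75, 21 (28.0%) were higher in PB2 by 2-fold or more and 2 (2.67%) higher in the zygote by 2-fold or more, beside 18.9% and 8.09% over all genes compared. Their median log2 ratio was 0.32, beside 0.21. Among the 21, Fos, Elk1, Mapkapk3 and Map2k3 reached 1 TPM in PB2 alone, the library where they were higher. The shares of 18.9% and 8.09% apply beside the count of each list below as well. With the GC trend removed 8 list genes were higher in PB2 by 2-fold or more, beside 976 of all 10606 genes. With the length trend removed 10 were, beside 1285 of all genes. Under either removal the share of the lists thus fell below 28.0% and lay nearer to that of all genes. With a filter at 5 TPM 15 list genes passed, beside 1636 of 7888 genes. No list was tested for a difference from all genes. In each list the genes with the largest and the smallest log2 ratio were named by rule, and further genes were named after their values were seen.

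Upstream of Raf, 2 of the 8 Ras proteins, adaptors and exchange factors compared were higher in PB2 by 2-fold or more, the adaptors Shc1 and Grb2, which link receptors to Ras activation. Shc1 stood at 3.7 TPM in the zygote and at 13.5 TPM in PB2, and Grb2 18.7 and 42.4 TPM. With the GC trend removed neither passed 2-fold, at log2 ratios of 0.82 and 0.74, and with the length trend removed Shc1 alone did. The Ras gene Nras stood at 97.1 TPM in the zygote and at 91.7 TPM in PB2, the lowest log2 ratio of the list at -0.08.

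Of the 8 inhibitors of Ras and Raf compared, none was 2-fold apart in either direction, and their median log2 ratio was 0.17. The list ran from Spry1, with 34.0 TPM in the zygote against 19.1 TPM in PB2, to Spry4, with 139.0 and 269.4 TPM. Both encode Sprouty proteins, which restrain receptor signaling to Ras and Raf.

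The median log2 ratio of the 6 other kinases of the cascade compared was 0.95. Of them 3 were higher by 2-fold or more in PB2 and 1 in the zygote, beside 18.9% and 8.09% of all genes compared. These 3 were Mknk2, a kinase that ERK activates, with the largest log2 ratio at 1.24, and Ksr1 and Ksr2, scaffold relatives of Raf, at 1.22 and 1.12. The Ksr and Mknk2 values were low, none of them above 9.9 TPM in either library. None of the 3 passed 2-fold with the GC or the length trend removed, and only Ksr2 remained with a filter at 5 TPM. The median of the list was 0.33 with the GC trend removed and 0.36 with that filter. Rps6ka5, which encodes the nuclear kinase MSK1, went the other way, with 69.4 TPM in the zygote against 27.7 TPM in PB2, with a log2 ratio of -1.29.

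Scaffolds and chaperones gave a median log2 ratio of -0.067 over 16 genes, of which 2 were higher in PB2 by 2-fold or more. These were Ywhab, an adaptor that binds phosphorylated Raf, with 217.7 TPM in the zygote against 521.2 TPM in PB2, and the chaperone Hsp90ab1, with 260.2 and 599.3 TPM. Wdr83, a scaffold of the ERK module, had the lowest log2 ratio at -0.83, with 4.7 and 2.2 TPM. With the GC trend removed Hsp90ab1 had a log2 ratio of 0.86 and Wdr83 one of -1.47, and neither Ywhab nor Hsp90ab1 passed 2-fold with the length trend removed, at 0.91 and 0.90.

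Phosphatases that act on ERK or its kinases were few in the table, 5 of the 12 written. Ppp2r1a, a scaffold subunit of protein phosphatase PP2A, stood at 38.4 TPM in the zygote and at 152.1 TPM in PB2, and Dusp7 and Dusp1, which dephosphorylate MAP kinases, had 124.5 and 325.2 TPM and 71.0 and 164.2 TPM. These 3 of the 5 genes were higher in PB2 by 2-fold or more, beside 18.9% of all genes compared. With the GC trend removed Ppp2r1a alone passed, Dusp7 and Dusp1 having log2 ratios of 0.54 and 0.57, and the median of the list was 0.54. Ppp2ca, the catalytic subunit of PP2A, had the lowest log2 ratio, 0.42.

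Genes through which the cascade acts in meiosis diverged. Pkmyt1, the kinase that inhibits Cdk1, stood at 5.9 TPM in the zygote and at 32.4 TPM in PB2, with a log2 ratio of 2.28 that was the largest of the pathway lists. Cdc20, an activator of the anaphase-promoting complex, Cpeb1, which binds stored mRNAs, and Cdk1 were also higher by 2-fold or more, with log2 ratios of 2.02, 1.40 and 1.02. Bub1, a spindle checkpoint kinase, stood at 73.9 TPM in the zygote and at 20.7 TPM in PB2, with a log2 ratio of -1.79 that was the lowest of the lists.

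The other 6 of these 11 genes were not 2-fold apart. Fbxo43, which encodes the anaphase inhibitor Emi2 and stands at the end of the cytostatic pathway, stood at 66.2 TPM in the zygote and at 128.9 TPM in PB2, with a log2 ratio of 0.95. Ccnb1, the cyclin partner of Cdk1, stood at 1490 TPM in the zygote and at 965.9 TPM in PB2. The median of the list was 0.080, below that of all genes compared. With the GC trend removed Pkmyt1, Cdc20 and Fbxo43 passed 2-fold, at 1.24, 1.33 and 1.16, while Cpeb1 and Cdk1 did not, and Cdk2ap2, a MAP kinase substrate in the oocyte, joined Bub1 at -1.35. Cdk1 also lost the call with the length trend removed, at 0.67. With either scaling described below, or with centring, the list had 3 genes higher in PB2 by 2-fold or more, against 4. Of those 4, Cdk1 had the lowest log2 ratio, 1.02.

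Of 8 transcription factors downstream of ERK compared, 5 were higher in PB2 by 2-fold or more, beside 18.9% of all genes compared. They were Egr1, Fos, Elk4, Srf and Elk1. With the GC trend removed 3 of them passed, Srf and Elk1 having log2 ratios of 0.24 and 0.82, and the median of the list went from 1.27 to 0.53. With a filter at 5 TPM 3 genes of the list passed, and the median was 0.86. The immediate early gene Egr1 stood at 4.4 TPM in the zygote and at 23.2 TPM in PB2, and Fos, another, had 0.4 and 3.1 TPM. Elk1 had 0.5 and 2.5 TPM. Fos and Elk1 reached the filter of 1 TPM in PB2 alone, the library where they were higher. Only Elk4 among the 5 passed 25 TPM in PB2, with 50.4 TPM. Atf1 had 59.9 and 61.2 TPM and the lowest log2 ratio of the list, 0.030.

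**Figure D5:**
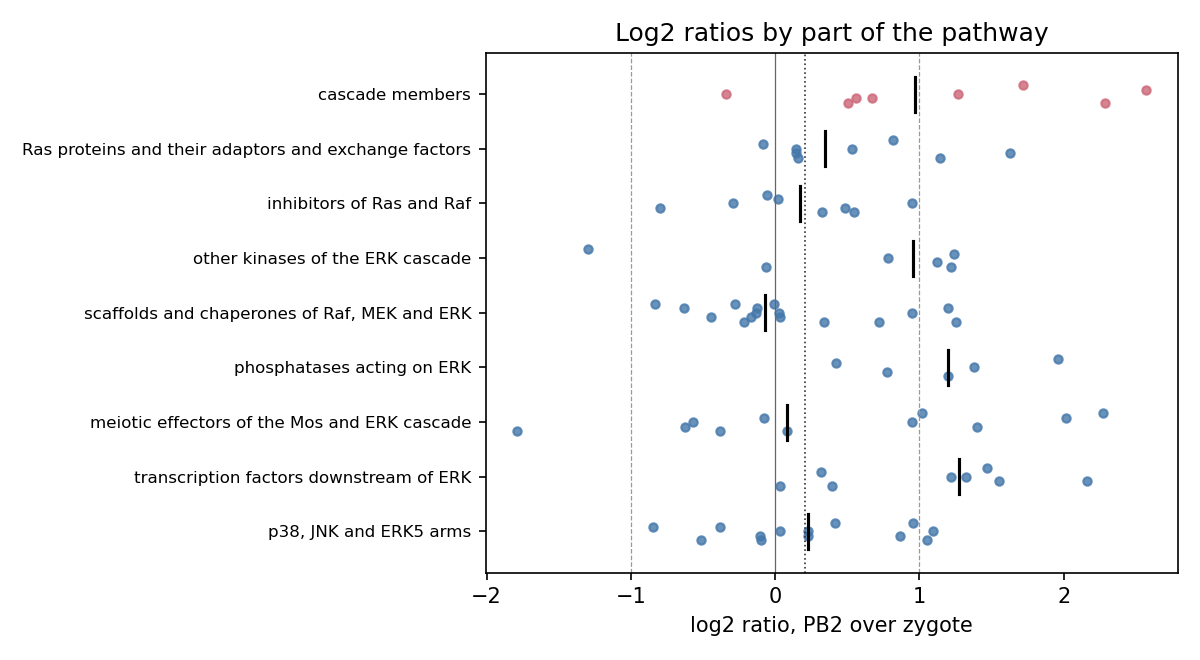
Log2 ratios of PB2 over zygote (x axis) of the cascade genes and of the pathway lists (rows), 1 point per gene with at least 1 TPM in either library; short black bars are medians, dashed lines mark 2-fold and the dotted line the median of all genes compared, 0.21. The cascade genes have a median of 0.97, the scaffolds and chaperones one of -0.067, and points of the meiotic effectors reach from -1.79 to 2.28.

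The genes whose levels were most like those of Mos, by distance of log2(TPM + 1) over the 2 libraries, were Atxn2l with 60.2 TPM in the zygote against 300.0 TPM in PB2, Ppm1b with 62.2 and 290.2 TPM, and Errfi1 with 62.1 and 277.4 TPM. For Mapk3 they were Ptpn21 with 133.9 and 554.2 TPM, Ruvbl2 with 164.3 and 422.8 TPM, and Dcun1d5 with 145.5 and 627.8 TPM. With 2 libraries this likeness holds a level and a ratio and no more.

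Both libraries held oocyte transcripts, with all 8 markers present at 99.5 TPM or more. Their sum was 40322 TPM in the zygote against 25612 TPM in PB2, with Gdf9 2.76 times as high in PB2 and Dppa3 2.80 times as high in the zygote. Dppa3 alone gave 22561.9 TPM of the zygote sum and 8070.2 TPM of the PB2 sum, and 6 of the 8 markers were not 2-fold apart. The part of this difference in sums in the members' ratios was not tested. Of 14 cumulus and granulosa cell markers 4 were in the table, summing to 74.7 TPM in the zygote against 76.4 TPM in PB2. Cyp19a1 alone gave 72.2 and 70.9 TPM of these sums. The others were low but higher in PB2: Star 0.3 and 1.4, Fshr 2.2 and 3.3, and Cyp11a1 0.0 and 0.8 TPM. Of 7 sperm markers 2 were found, Prm2 with 19.8 and 22.0 TPM and Akap4 with 1.0 and 0.6 TPM. The sums of the cumulus and granulosa cell markers and of the sperm markers were nearly level between the libraries, the former through Cyp19a1. The members' sum was 410.3 TPM in the zygote against 1275 TPM in PB2. The part of RNA from other cells in the members' ratios was not tested. Actb, the internal control of the study's RT-qPCR, had 120.0 and 134.8 TPM.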

How the data were processed

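Amplified polyadenylated RNA of PB2 and of zygotes was sequenced, 1 library each. Per the study's methods, the authors aligned reads with HISAT2 2.0.4 and counted them with HTSeq 0.6.1p1. The methods name the rabbit assembly OryCun2.0, the submitters' processing notes also list GRCm38, and the identifiers in the table are those of mouse genes. The authors deposited TPM to 1 decimal, and how TPM was made from counts is not given in the sources used here. The listed genes hold 92.7% of a full library's TPM in the zygote and 89.8% in PB2, and depth is unknown. Columns were matched to samples by name, with 0 left over.

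Log2 ratios used a pseudocount of 1 and genes with at least 1 TPM in either library. Transcript length, GC content and gene positions came from GENCODE M21 (GRCm38), taking for each gene the protein-coding transcript with the longest coding sequence. 11221 identifiers had one. The loess trends had a span of 0.3 and covered genes with a transcript. The procedure was tested on simulated data made from genes of higher zygote level than Araf, Braf, Map2k2, Rps6ka1 and Rps6ka3. That test therefore does not cover levels as low as theirs.

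The members, lists and rules were chosen with earlier results of these data known. Some genes of the pathway are not reported here and were left out of the lists. Named genes are the 8 members, the extremes of each list, and the 3 genes nearest to Mos and to Mapk3; further genes, chosen after their values were seen, are Rps6ka6, Actb and other list genes. Alternatives were 2 smaller pseudocounts, 2 scalings, GC and length trend removal, 2 filters, 2 thresholds and, added after seeing the data, centring on the median. The work used statsmodels 0.14.6 for loess, scipy 1.17.1 for correlation, and matplotlib 3.10.9, pandas 2.3.3 and numpy 2.4.6 under Python 3.11.15.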

Additional observations from a re-analysis of the deposited data

How the results depend on the processing

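No paired analysis was possible because each group has 1 library. A log2 ratio or median was taken as unmoved within 0.5, and a count within 1.5 times. Under pseudocounts of 0.1 and 0.01, scaling of the zygote to a median ratio of 1, rescaling without mitochondrial and the most abundant genes, removal of the length trend and centring, the log2 ratios of the 8 members kept their sign and stayed within 0.5; 4 members were 2-fold or more higher in PB2 under each of these but the length trend, which left 3. Depth limits Braf, Map2k2 and Rps6ka1, whose zygote values are under 3 TPM, by an amount that is not known.

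With the GC trend removed, the log2 ratio was 1.78 for Mos, 1.60 for Map2k2, 0.89 for Mapk3, -0.13 for Araf and -0.12 for Rps6ka1, and 2 members were at least 2-fold higher in PB2. The pathway lists then had 8 genes higher in PB2 and 6 higher in the zygote, all genes 976 and 1154 in these directions, and the p38, JNK and ERK5 list a median of -0.037. With the length trend removed, the lists had 10 and 4 genes, all genes 1285 and 1239, and the medians were -0.10 for the inhibitors of Ras and Raf, -0.19 for the meiotic effectors and -0.12 for p38, JNK and ERK5. Either removal centres the ratios by construction; what else moved these values was not tested.

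Centring by 0.21 left 14 list genes higher in PB2 and 5 in the zygote, with medians of -0.037 for the inhibitors and -0.13 for the meiotic effectors, as its construction sets. Over all genes it gave 1383 higher in PB2 and 1291 in the zygote, against 2009 and 861. At 1.5-fold 30 and 7 list genes and 3642 and 1924 of all genes passed, in PB2 and in the zygote respectively. At 4-fold 2 members, Mos and Map2k2, passed, with 3 and 0 list genes by direction and 264 and 74 of all genes, which follows from the threshold. With pseudocounts of 0.1 and 0.01 there were 23 list genes higher in PB2 and 4 in the zygote, against 21 and 2. With a filter at 5 TPM the median of p38, JNK and ERK5 was -0.10, with fewer genes compared.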

Other observations

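The other MAP kinase arms, p38, JNK and ERK5, were compared through a list of 17 genes, of which 14 were in the table and 13 reached 1 TPM in either library. Their median log2 ratio was 0.23, beside 0.97 for the 8 cascade genes and 0.21 for all genes compared, and its sign turned under 3 of the alternatives given above. Mapk8 and Mapk9, which encode JNK kinases, had 62.1 and 15.1 TPM in the zygote and 58.0 and 14.0 TPM in PB2. Map2k4, a kinase of the stress arms, stood at 87.8 TPM in the zygote and at 160.6 TPM in PB2, with a log2 ratio of 0.86. Higher in PB2 by 2-fold or more were 2 of the 13, Mapkapk3 and Map2k3, beside 18.9% of all genes compared. Both had at most 2.2 TPM in PB2 and reached 1 TPM in that library alone. Neither passed with the GC or the length trend removed. Map2k6 had the lowest log2 ratio, -0.85, with 5.3 TPM in the zygote against 2.5 TPM in PB2. No gene of these arms reached the levels of Mos, Map2k1 or Mapk3 in PB2.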
